A study of Danio rerio with 36 samples.

Results

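The genes described here encode the proteins of the cytoplasmic ribosome, followed in the heads of larval zebrafish raised with and without microbes. They were chosen by symbol: every gene of both deposited count tables whose symbol begins with rpl or rps followed by a digit, or with rplp, leaving out the 11 symbols that begin with rps6k, which are kinases. That gave 83 genes, of 24860 in the table of experiment 1 and 25077 in the table of experiment 2, and all 83 were in both. By name, 48 belong to the large subunit, among them RPL41, which the files write in capitals, and 34 to the small subunit. The remaining one, rps19bp1, encodes a protein that binds Rps19 and is not part of the ribosome. The genes were spread over all 25 chromosomes.

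A ribosome joins a small subunit, which reads the mRNA, to a large subunit, which forms the peptide bond, and each subunit packs many small proteins around ribosomal RNA. Growing cells make these proteins in near-equal amounts, and their mRNAs carry a pyrimidine tract at the very start through which the mTOR pathway tunes their translation. In humans, loss of 1 copy of several of them causes Diamond-Blackfan anemia, and in zebrafish heterozygous mutations of many of them predispose to tumours.

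The larvae came from the mixed wild type line of the US EPA and were collected at 10 days post fertilization. In each of the 2 experiments there were 3 groups: axenic larvae, which carried no microbes; larvae given microbes on day 1, called re-colonized; and larvae conventionally colonized throughout, the controls. Each library was made from pooled heads, cut in front of the swim bladder. Experiment 1 held 6 libraries per group, made from total RNA with ribosomal RNA removed and RNA isolated by a contract laboratory. In experiment 2 the axenic group had 4 libraries and the colonized groups 7 each, made from polyA-selected RNA extracted in the laboratory of the study. Kind of library and experiment cannot be told apart. In experiment 1 the library names of the axenic and re-colonized groups carry L6 and those of the conventional group L7, so whatever that tag marks cannot be told apart from the conventional group. Labels do not say whether pools of one group came from separate spawns, so the p-values below measure the spread between these pools.

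Library totals ran from 11716737 to 15017645 counts in experiment 1 and from 15148068 to 25760598 in experiment 2. All 16 listed neuron genes were in both tables and none was at 0 in any group. Genes of the exocrine pancreas, a digestive gland, were also present in these head pools, with summed levels between 332 and 33167 CPM (counts scaled to a common library total) per library. A few libraries stood apart for the ribosomal protein genes: axenic C (high) and re-colonized B (low) in experiment 1, and axenic 7, re-colonized 1, re-colonized 7 and conventional 1 (all low) in experiment 2. Counts of calls for the group comparisons are given with and without them. All CPM are scaled per library by the trimmed mean of M values within an experiment and are not divided by transcript length, so levels of different genes are not compared as molecules.

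Together the 83 genes took a few percent of all counts. In experiment 1 the share was 4.14% ± 1.01 in axenic heads, 3.60% ± 0.620 in re-colonized heads and 3.39% ± 0.382 in conventional heads (SD, n = 6 each). The lowest, median and highest libraries stood at 3.26%, 3.82% and 6.001% in axenic heads, at 2.48%, 3.70% and 4.36% in re-colonized heads, and at 2.99%, 3.34% and 3.95% in conventional heads. The groups overlapped, and the highest axenic value was library C. Structural RNAs, which took on average 48.8%, 51.2% and 53.1% of the counts in axenic, re-colonized and conventional heads of experiment 1, enter that denominator. Without them the share was 8.00% ± 1.17 in axenic heads, 7.34% ± 0.803 in re-colonized heads and 7.21% ± 0.508 in conventional heads.

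In experiment 2 the order of the groups was another one. The 4 axenic libraries held 7.27%, 7.76%, 6.73% and 4.67% of their counts in these genes, a mean of 6.61% ± 1.36. Re-colonized libraries held 4.57% at the lowest, 5.96% at the median and 7.72% at the highest (mean 6.27% ± 1.15, n = 7), and conventional libraries 6.49%, 7.81% and 9.93% (mean 7.92% ± 1.26, n = 7). Axenic minus conventional thus gave 0.750 percentage points in experiment 1 and -1.31 in experiment 2. Leaving out 1 library at a time moved the first value between 0.377, without axenic C, and 0.926, and the second between -1.69 and -0.660. A large part of the share of experiment 2 was 1 gene, rplp1. Without rplp1 the mean shares of experiment 2 were 5.13% ± 1.23 in axenic, 4.77% ± 0.852 in re-colonized and 5.91% ± 1.26 in conventional heads. In experiment 1 they were 4.01% ± 0.980, 3.50% ± 0.594 and 3.29% ± 0.365 in the same order.

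**Figure D1:**
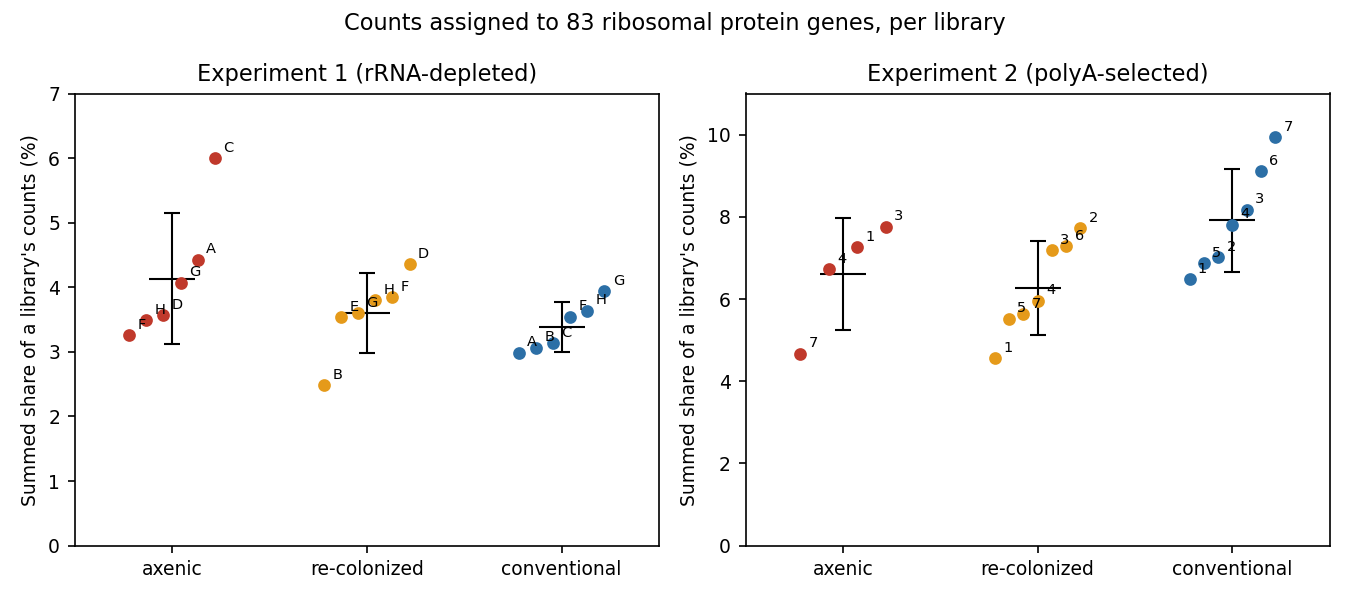
Share of all counts taken by the 83 ribosomal protein genes, in percent (vertical axis), with 1 point per library, grouped by treatment within each experiment; bars give the mean and SD. In experiment 1 axenic C stands at 6.001%, above all other libraries of that experiment, and in experiment 2 conventional heads average 7.92% against 6.61% in axenic and 6.27% in re-colonized heads.

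Among single genes, members of the stalk, the large-subunit proteins that recruit elongation factors, had the highest count in each experiment. rplp0, the base of the stalk, was the highest in experiment 1 with a mean of 2426 CPM over all libraries, followed by rpl15, rpl13 and rpl3, large-subunit proteins with 1356, 1246 and 1226 CPM, rps2, a small-subunit protein near the mRNA entry channel, with 1139 CPM, and rplp1, which sits on the stalk, with 1075 CPM. In experiment 2 rplp1 led with 17634 CPM, followed by rplp0 with 7874, rps2 with 7034, rpl3 with 3667, rpl4, which lines the peptide exit tunnel, with 3057, and rps9, a small-subunit protein at the mRNA entry, with 2718 CPM. Of the 100 genes with the highest mean CPM, 19 were ribosomal protein genes in experiment 1 and 11 in experiment 2. The medians over the 83 genes were 306 CPM in experiment 1 and 261 CPM in experiment 2, and the other stalk genes averaged 241 and 158 CPM (rplp2) and 201 and 576 CPM (rplp2l). Levels reached far down: rps19bp1 averaged 5.14 CPM in experiment 1 and 1.47 CPM in experiment 2. All 83 genes passed the filter on low counts in both experiments.

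Several of these proteins are encoded by more than one gene. For rps27, a protein of the small subunit, rps27.1 averaged 306 CPM and rps27.2 230.1 CPM in experiment 1, with rps27l at 5.82 CPM, against 402, 586 and 5.54 CPM in experiment 2. rpl5a and rpl5b, the copies of the protein that carries the 5S ribosomal RNA, were near each other with 231 and 294 CPM in experiment 1 and 87.0 and 84.0 CPM in experiment 2. rpl22 exceeded its paralog rpl22l1 with 94.1 against 34.6 CPM in experiment 1 and 44.1 against 14.3 CPM in experiment 2. How the counting divided reads between near-identical copies is uncertain. The same holds for the 41 genes whose annotated span overlaps another gene, in 22 of them a small nucleolar RNA and in 17 a gene on the opposite strand, since whether counting used strand is not given in the sources used here.

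In experiment 1 the question was whether heads without microbes differed from colonized ones. Ribosomal protein genes had higher levels in axenic than in conventional heads with few exceptions, but by small amounts. The log2 fold change was above 0 for 81 of the 83 genes, against 48.8% of the 19727 genes tested, and the median was 0.28 (all genes -0.01), with a middle range of 0.20 to 0.37. It ran from -0.07 for rps27l to 0.67 for rpl29, a small protein of the large subunit, and was 0.30 at the median of the large and 0.27 at that of the small subunit. Under edgeR's quasi-likelihood test with Benjamini-Hochberg adjustment over all genes, 7 of the 83 genes (8.43%) were higher at an adjusted p below 0.05 and none lower, where 8.89% of all genes were higher, 6.71% lower and 15.6% changed in either direction. At an unadjusted p below 0.05, 46 were higher and none lower (55.4%, against 15.3% of all genes higher and 13.6% lower). These genes are measured in the same pools, so their counts are not independent. In pooled heads, fewer cells of a type and less RNA per cell cannot be told apart.

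rpl23a (chromosome 21, 26071874 to 26074641, plus strand, GRCz11) encodes a protein at the mouth of the exit tunnel. Its levels were 437, 475 and 603 CPM at the lowest, median and highest axenic library, against 353, 405 and 415 CPM in conventional heads. Every axenic library lay above every conventional one, the only such case among the 83 genes, where 3.8% of all genes separated that way. The means were 489 ± 59.6 CPM in axenic and 391 ± 26.1 CPM in conventional heads (SD, n = 6 each), a log2 fold change of 0.32 (SE 0.10, edgeR adjusted p = 0.0238).

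The other genes past the threshold overlapped between the groups. rpl24 (chromosome 1, 6408 to 12028, minus strand), which contributes a bridge between the subunits, had 265, 322 and 506 CPM in axenic and 218, 254 and 287 CPM in conventional heads at the lowest, median and highest library, and rose with a log2 fold change of 0.43 (SE 0.14, edgeR adjusted p = 0.0304). rps24 (chromosome 13, 30225262 to 30235221, plus strand), one of the Diamond-Blackfan anemia genes of humans, had 159, 175 and 384 CPM in axenic and 129, 153 and 169 CPM in conventional heads (0.50, SE 0.16, edgeR adjusted p = 0.0343). In both genes the highest axenic value was library C, well above the others. rpl22l1, the lower copy of its pair, had 29.9, 37.1 and 66.7 CPM in axenic and 26.04, 29.0 and 35.5 CPM in conventional heads (0.43, SE 0.14, edgeR adjusted p = 0.0353).

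rpl35a, another Diamond-Blackfan anemia gene of humans, had 522, 550.1 and 788 CPM in axenic heads, against 402, 465 and 523 CPM in conventional heads (0.38, SE 0.13, edgeR adjusted p = 0.0426). Its lowest axenic library fell just inside the conventional range.

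Axenic C decided these calls. Without it, edgeR called 0 of the 83 genes, where 7.49% of all genes were called higher. The median log2 fold change was then 0.16 and 79 genes lay above 0. At an unadjusted p below 0.05, 11 of the 83 (13.3%) were higher, near the 13.8% of all genes. The adjusted p without axenic C was 0.0703 for rpl23a, 0.109 for rpl24, 0.120 for rps24, 0.122 for rpl22l1 and 0.127 for rpl35a. Leaving out axenic C together with re-colonized B, which enters the shared estimate of spread, left 3 calls (3.61%, against 7.86% of all genes), 17 genes higher at an unadjusted p below 0.05 (20.5%, against 14.2% of all genes) and a median of 0.16. The count of calls was also below 7 by over 1.5 times in other omissions of 1 library. It was 0 without conventional A, with 30 higher at an unadjusted p below 0.05. It was 1 without axenic A or conventional B, C or F, and 4 without re-colonized E. It was above 7 by as much without axenic D (17) or F (16) or re-colonized B (13). Shares of all genes are not given for these omissions. Over 11 alternative ways of processing, the call stood in 10 for rpl23a and rpl24, in 9 for rpl35a, and in 7 for rps24 and rpl22l1, with adjusted p-values of up to 0.123.

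Against re-colonized heads, the axenic heads of experiment 1 gave a like picture of smaller size; both comparisons use the same axenic libraries. The log2 fold change was above 0 in 78 of 83 genes, against 51.2% of all genes, with a median of 0.22 (all genes 0.01). edgeR called 4 genes higher (4.82%) and none lower, where 8.67% of all genes were higher, 8.27% lower and 16.9% changed in either direction, and 24 genes (28.9%, against 15.1% of all genes) were higher at an unadjusted p below 0.05. None of the 83 separated the groups without overlap, against 3.01% of all genes that were higher without overlap.

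Of these 4, rpl6 (chromosome 8, 2493794 to 2506385, minus strand), a large-subunit protein, had 459.7, 582 and 708.9 CPM at the lowest, median and highest axenic library and 420.4, 437 and 531 CPM in re-colonized heads, a log2 fold change of 0.34 (SE 0.11, edgeR adjusted p = 0.0279). rpl23a stood at 314, 402 and 458 CPM in re-colonized heads, of which only the highest reached into its axenic levels given above (0.30, SE 0.10, edgeR adjusted p = 0.0320). rplp2l (chromosome 7, 12959846 to 12968702, minus strand), a copy of the stalk protein rplp2, had 179, 224 and 326 CPM in axenic and 137, 178 and 218 CPM in re-colonized heads (0.40, SE 0.13, edgeR adjusted p = 0.0333), while rplp2 itself had a log2 fold change of -0.01. rps26l, a copy of the small-subunit protein rps26, had 188, 213 and 233 CPM in axenic and 127, 170.3 and 210.03 CPM in re-colonized heads (0.31, SE 0.10, edgeR adjusted p = 0.0381). In each of them the groups overlapped.

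These calls rested on single libraries as well. Without axenic C edgeR called 0 of the 83 genes and 8 (9.64%) were higher at an unadjusted p below 0.05, where 13.7% of all genes were, with 77 genes above 0 and a median of 0.09. Without axenic C and re-colonized B it called 0, with 5 higher and 3 lower at an unadjusted p below 0.05 (6.02% and 3.61%, against 13.3% and 12.6% of all genes), 46 genes above 0 and a median of 0.01. Counts of 0 to 2 also came without axenic A (0 called, 16 higher at an unadjusted p below 0.05) or H. They came as well without re-colonized G (0 called, 11 likewise), B, E or F, and the count was 7 without axenic F. For these omissions too, shares of all genes are not given. rpl6, rpl23a and rplp2l had adjusted p-values of 0.0791, 0.0915 and 0.112 without axenic C, and rps26l of 0.0893 without axenic A. Over the 11 alternatives, the call stood in 8 for rpl6, in 7 for rpl23a and in 6 for rplp2l and rps26l, with adjusted p-values of up to 0.223.

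**Figure D2:**
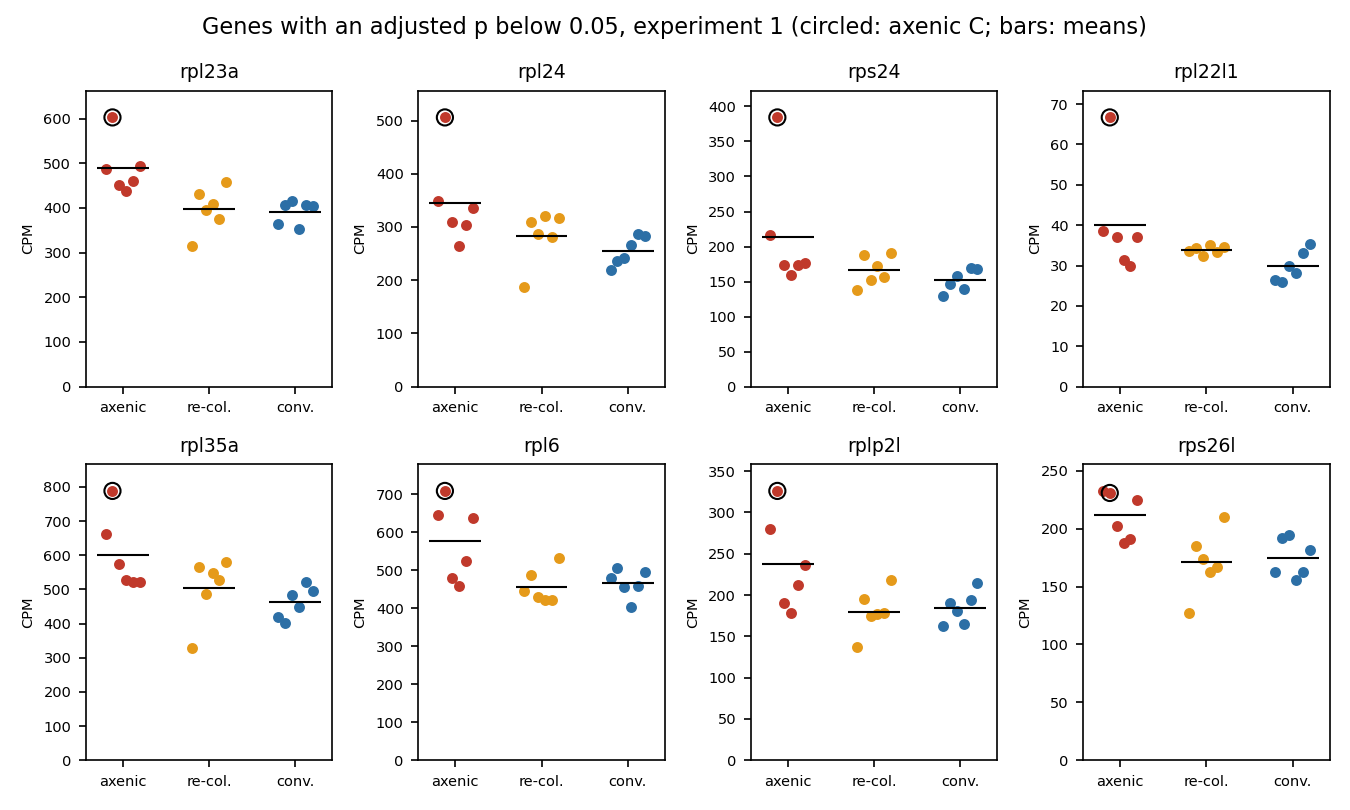
CPM in each library of experiment 1 (vertical axis) for 8 genes called in axenic heads against conventional or re-colonized heads, with axenic, re-colonized and conventional libraries side by side; bars give group means and the circled point is axenic C. In rpl23a all 6 axenic points lie above all 6 conventional points, and in rps24 the circled point stands at 384 CPM while the other axenic libraries lie between 159 and 216 CPM.

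Re-colonized against conventional heads of experiment 1 gave no call. The log2 fold change was above 0 in 64 of 83 genes, against 50.7% of all genes, with a median of 0.08 that ranged from 0.02 to 0.17 when 1 library at a time was left out. edgeR called 0 genes, where it called 0.0152% of all genes, and DESeq2 and limma's voom called 0. At an unadjusted p below 0.05 there were also 0, where 2.75% of all genes were higher and 2.04% lower. The gene with the smallest p of the 83 was rpl7l1, a relative of rpl7 by name, with 11.4 ± 2.08 CPM in re-colonized and 9.85 ± 0.793 CPM in conventional heads (log2 fold change 0.21, SE 0.13, edgeR adjusted p = 0.999). Without axenic C and re-colonized B edgeR again called 0 of the 83, where 0.0253% of all genes were higher and 0.00505% lower. At an unadjusted p below 0.05, 14 were then higher and 0 lower (16.9%, against 3.1% of all genes higher and 2.47% lower). The log2 fold change was then above 0 in 74 genes, with a median of 0.17.

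The spread between pools was shared by most of the 83 genes. Each gene's log2 CPM was set against the mean of its group, and the median over the 83 genes was taken in each library. In experiment 1 it was 0.54 in axenic C, where 79 of the genes lay above their group mean and 72 had their highest axenic value. It was -0.29 in axenic F, with 51 genes at their lowest axenic value, and -0.43 in re-colonized B, with 66 genes at their lowest. Among conventional libraries it lay between -0.18 in B and 0.19 in G. Large and small subunit moved alike, with 0.52 and 0.56 in axenic C. Over the libraries of experiment 1, between 48.5% (axenic D) and 53.5% (axenic A) of all genes lay above their group mean. In experiment 2 it was between 47.2% and 56.2%.

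Other measures also differed in axenic C and re-colonized B. Structural RNAs took 40.9% of the counts in axenic C, the lowest of its experiment, and 57.6% in re-colonized B, the highest. Transcripts of the mitochondrial genome took 1.81% in axenic C, the highest, and 0.700% in re-colonized B, the lowest. Summed markers of other cell types in axenic C, beside the range of the other 5 axenic libraries, were 13277 CPM for skeletal muscle (12838 to 14336), 2029 for liver (1670.1 to 2230), 179 for dividing cells (81.6 to 279), 352 for erythroid cells (191 to 386) and 18045 for the exocrine pancreas (12846 to 19104). Photoreceptor markers stood at 3255 CPM in axenic C, above the other axenic libraries (2291 to 3116).

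Markers of several cell types also differed between the groups of experiment 1. The muscle list summed to 12838 to 14336 CPM in axenic, 8893 to 12463 in re-colonized and 8049 to 10217 in conventional heads. The photoreceptor list summed to 2291 to 3255, 1023 to 1718 and 1243 to 1533 CPM in the same order of groups, the liver list to 1670.1 to 2230, 787 to 1582 and 824 to 1319 CPM, and the leukocyte list to 44.4 to 57.3, 95.1 to 168 and 84.5 to 131 CPM. Muscle, photoreceptor and liver markers were thus higher, and leukocyte markers lower, in every axenic library than in every colonized one. Markers of dividing cells summed to 81.6 to 279, 75.1 to 96.1 and 73.1 to 90.1 CPM, and erythroid markers to 191 to 386, 203 to 253 and 150.3 to 295 CPM, so that these overlapped. Of these lists, 20 of 20 muscle, 15 of 16 photoreceptor, 16 of 16 liver, 14 of 14 leukocyte, 15 of 15 dividing-cell and 12 of 17 erythroid genes were in the table and none was at 0 in a whole group. Their part in the results above was not tested.

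**Figure D3:**
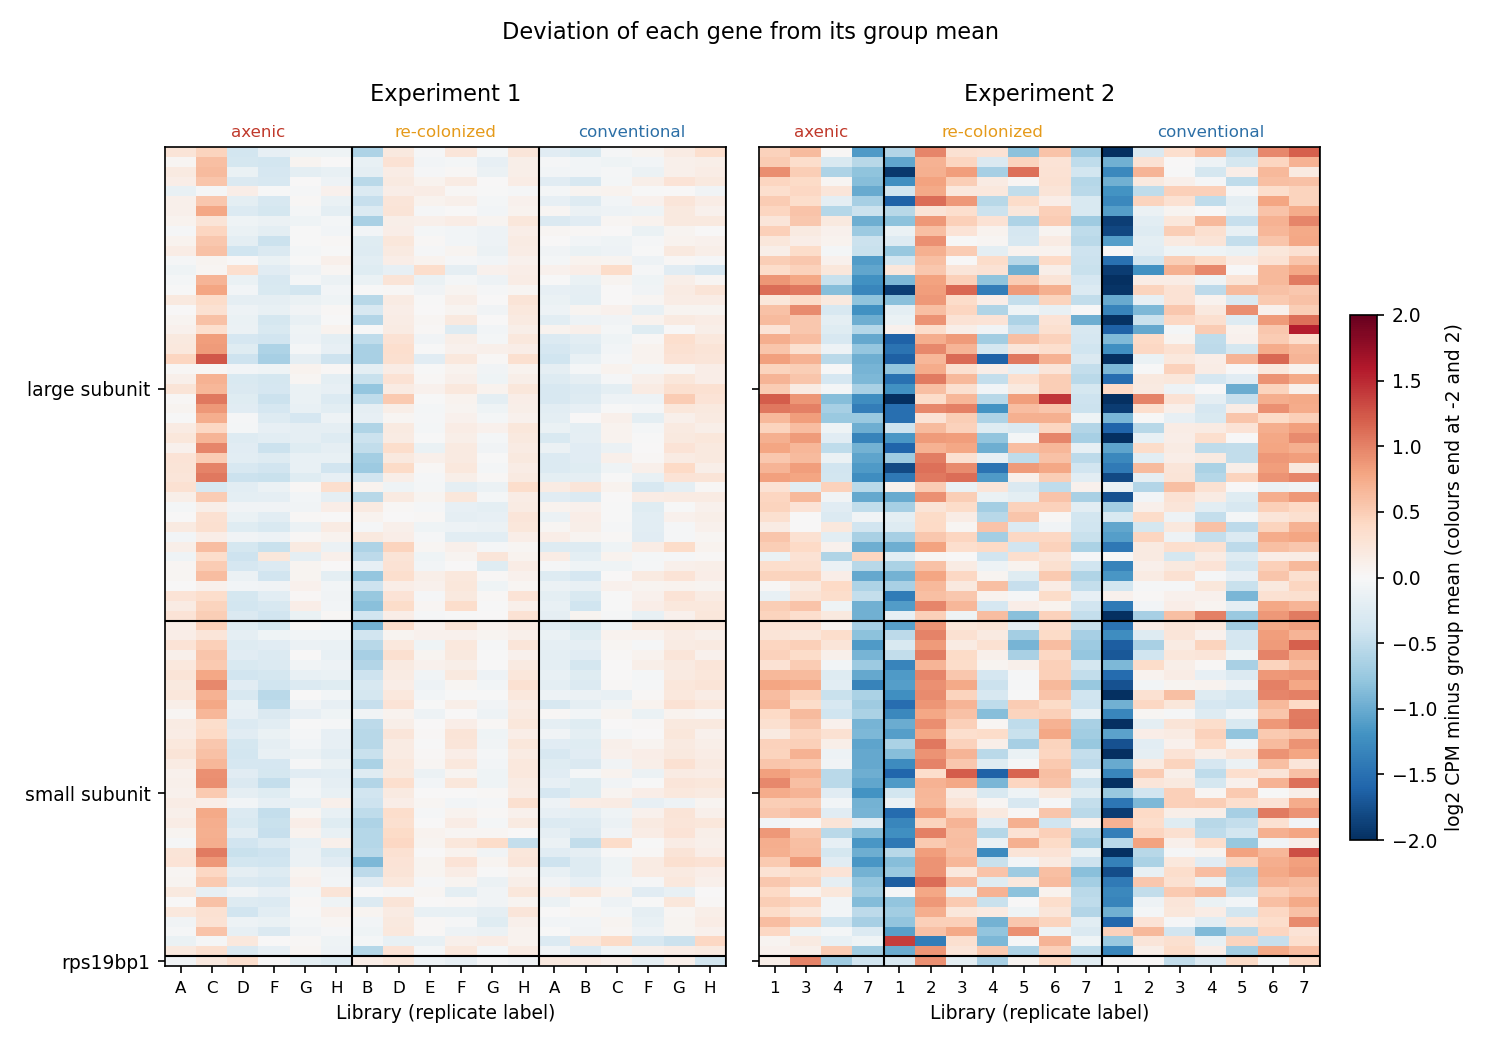
Heat map of log2 CPM minus the mean of the library's own group for the 83 ribosomal protein genes (rows) in the libraries of both experiments (columns, ordered by group); colours end at -2 and 2. Most genes of a column often share a colour: axenic C of experiment 1 (median 0.54, 79 of 83 genes above 0) is high, and axenic 7 (-0.93), re-colonized 1 (-0.90) and conventional 1 (-1.32) of experiment 2 are low.

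In experiment 2 this shared spread was wider. The SD within groups of log2 CPM had a median over the 83 genes of 0.72, against 0.50 over all genes. In experiment 1 it was 0.25, against 0.27 over all genes. All 83 genes had the larger SD in experiment 2, where the median SD of all genes was larger too. The share of all genes with a larger SD there is not given. The median deviation was -1.32 in conventional 1, where 72 genes had their lowest conventional value, and -0.93 in axenic 7, where 78 did. It was -0.90 in re-colonized 1 and -0.44 in re-colonized 7. At the other end it was 0.78 in re-colonized 2, 0.68 in conventional 7 and 0.64 in conventional 6. CPM are divided by the TMM factor, which averaged 1.03 in axenic, 1.14 in re-colonized and 0.893 in conventional heads. It was 1.13 in conventional 1, 1.21 in axenic 7, 1.55 in re-colonized 1 and 1.38 in re-colonized 7. In re-colonized 2 and conventional 7 and 6 it was 0.860, 0.807 and 0.769. The scaling thus widens the deviations of these libraries, by an amount not separated here. Not all genes were low in conventional 1, where 5 of the 83 lay above their group mean. rps27.2 had its highest level of all libraries of experiment 2 in conventional 1, with 1072 CPM. rplp1 was an exception as well: conventional 1 held 23786 CPM of it, next to a conventional median of 23709, so that rplp1 alone made up 41.2% of all ribosomal protein counts there, against 25.8% on average in conventional heads.

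The low libraries of experiment 2 were also low in exocrine pancreas genes, of which 19 of 27 were in the table. Their summed level was 332 CPM in re-colonized 1 and 4906 in re-colonized 7, where the re-colonized maximum was 26288, 2845 in conventional 1, where the maximum was 33167, and 7428 in axenic 7, where it was 21170.5. Muscle genes summed to 6993, 9186, 13670 and 22222 CPM in these 4 libraries. Other markers split them. Markers of dividing cells summed to 215, 198, 218 and 1116 CPM and erythroid markers to 88.4, 79.9, 96.6 and 475 CPM in the same order. For both lists axenic 7 was the highest library of experiment 2. Their part in the spread was not tested.

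Between the groups of experiment 2, liver markers summed to 2053 to 3343 CPM in axenic, 252 to 1374 in re-colonized and 716 to 1388 in conventional heads, and markers of dividing cells to 775 to 1116, 198 to 599 and 218 to 774 CPM. Both lists were higher in every axenic library than in every colonized one, by little for dividing cells. The photoreceptor list summed to 10173 to 14210, 5230.1 to 9254 and 6218 to 10816 CPM, the erythroid list to 278 to 475, 79.9 to 242 and 96.6 to 311 CPM, and the leukocyte list to 106 to 116, 91.3 to 303 and 128 to 473 CPM in the same order of groups. Their part in the comparisons below was not tested.

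The genes also differed in how far they ranged. rpl29 spanned 4.83-fold between its lowest and highest library in experiment 1, rps29, a small-subunit zinc finger protein, 4.11-fold, rpl38, needed in mice for the translation of Hox mRNAs, 3.82-fold, and rpl32, a large-subunit protein, 3.71-fold. In experiment 2, of genes that averaged at least 10 CPM, rpl32 ranged 18.4-fold, rpl22l1 14.2-fold, rps28, a small-subunit protein, 11.6-fold, and rpl10, which completes the large subunit late in its assembly, 11.4-fold. At the other end in experiment 1, rpl3 ranged 1.32-fold and rpl5a 1.33-fold, and rpl13 ranged 1.42-fold with a few other genes in between. Across the 83 genes the within-group SD of experiment 1 and that of experiment 2 had Pearson's r of 0.52 and Spearman's rho of 0.50, as a description across genes that share libraries.

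The tests of experiment 2 gave no call in any of the 3 comparisons, which share their libraries pairwise. In axenic against conventional heads edgeR called 0 of 83 genes, where it called 6.13% of all genes, 3.99% higher and 2.15% lower. At an unadjusted p below 0.05, 4 were higher and 5 lower, against 11.5% and 8.96% of all genes. DESeq2 called 4 genes lower and limma's voom 4 lower. Shares of all genes are not given for these 2 methods, so their counts are not set against them. The log2 fold change was above 0 in 33 genes and below 0 in 50, against 54.1% of all genes above 0, with a median of -0.16 (all genes 0.04), and it ranged from -1.43 to 1.46. The direction of that median rests on the scaling: with library totals alone the median of all genes moved to 0.24 and that of the 83 genes to 0.06, still below all genes.

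The low end was rplp2l, the stalk protein copy called higher in axenic than in re-colonized heads of experiment 1 with all libraries. Against conventional heads of experiment 1 its log2 fold change was 0.36, without a call. In experiment 2 its 4 axenic libraries held 437, 403, 365 and 164 CPM. The lowest, median and highest conventional libraries held 169.6, 1099 and 1488 CPM. Axenic 7 lay just below the lowest conventional library, conventional 1, and the other axenic values in the lower part of the conventional range (log2 fold change -1.43, SE 0.47, edgeR adjusted p = 0.0693). rpl6 had 816, 732, 838 and 556 CPM in axenic heads and 630.1, 1489.8 and 2085 CPM in conventional heads (-0.93, SE 0.30, edgeR adjusted p = 0.0714). At the high end, rpl29 had 10.8, 9.94, 4.16 and 3.06 CPM in axenic and 0.230, 2.34 and 4.59 CPM in conventional heads (1.46, SE 0.54, edgeR adjusted p = 0.111). The smallest adjusted p of the 83 was 0.0677, for rpl7l1, with 5.01 ± 1.54 CPM in axenic heads (SD, n = 4) and 3.11 ± 0.458 CPM in conventional heads (SD, n = 7). None of these reached the threshold.

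rplp1 had 12958, 17142, 18292 and 10314.5 CPM in axenic heads, against 11904, 23709 and 27759 CPM at the lowest, median and highest conventional library. Conventional 5 was the one low conventional library, and all 4 axenic values lay under the other 6 (log2 fold change -0.65, SE 0.34, edgeR adjusted p = 0.297). rplp0 averaged 7291 ± 2008 CPM in axenic and 9732 ± 2104 CPM in conventional heads (-0.42, SE 0.31, edgeR adjusted p = 0.480).

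In axenic against re-colonized heads of experiment 2, edgeR called 0 of the 83 genes, and 0 had an unadjusted p below 0.05, where 10.1% of all genes were higher and 4.59% lower at that limit. DESeq2 and limma's voom also called 0. edgeR called 3.89% of all genes there. The log2 fold change was above 0 in 75 genes, against 49.5% of all genes, with a median of 0.28 (all genes -0.01). Without re-colonized 1 and 7 that median was 0.05. In re-colonized against conventional heads edgeR called 0 of the 83, where it called 0% of all genes. At an unadjusted p below 0.05, 27 were lower and 0 higher (32.5%, against 7.63% of all genes lower and 6.01% higher). DESeq2 and limma's voom each called 2 lower, for which shares of all genes are not given. Here 16 genes lay above 0, against 51.7% of all genes, and 67 below, with a median of -0.42 (all genes 0.02). The smallest adjusted p was 0.245, for rplp2l, with 195, 325 and 533 CPM at the lowest, median and highest re-colonized library against the conventional levels given above (-1.33, SE 0.38). rpl31, a large-subunit protein, had 78.3, 209 and 277 CPM in re-colonized and 167, 353 and 454 CPM in conventional heads (-0.84, SE 0.26, edgeR adjusted p = 0.259). The re-colonized and conventional libraries overlapped in both.

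Without axenic 7, re-colonized 1 and 7 and conventional 1, edgeR still called 0 of the 83 in each of the 3 comparisons. At an unadjusted p below 0.05, axenic against conventional heads then gave 5 higher and 9 lower (6.02% and 10.8%, against 8.36% and 9.76% of all genes). Axenic against re-colonized heads gave 3 higher and 0 lower (3.61%, against 5.59% and 3.48% of all genes), and re-colonized against conventional heads 1 higher and 35 lower (1.2% and 42.2%, against 3.44% and 6.39% of all genes). The medians were -0.12, 0.26 and -0.35 in that order. Single libraries also moved axenic against conventional heads: without conventional 1 alone edgeR called 4 genes lower, with 17 lower at an unadjusted p below 0.05. Without conventional 5 it called 2 lower (7 at an unadjusted p), and without axenic 4 it called 1 higher (5 at an unadjusted p). Without axenic 7 the median was 0.0039. Shares of all genes are not given for these omissions of 1 library, so the counts are not set against them.

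**Figure D4:**
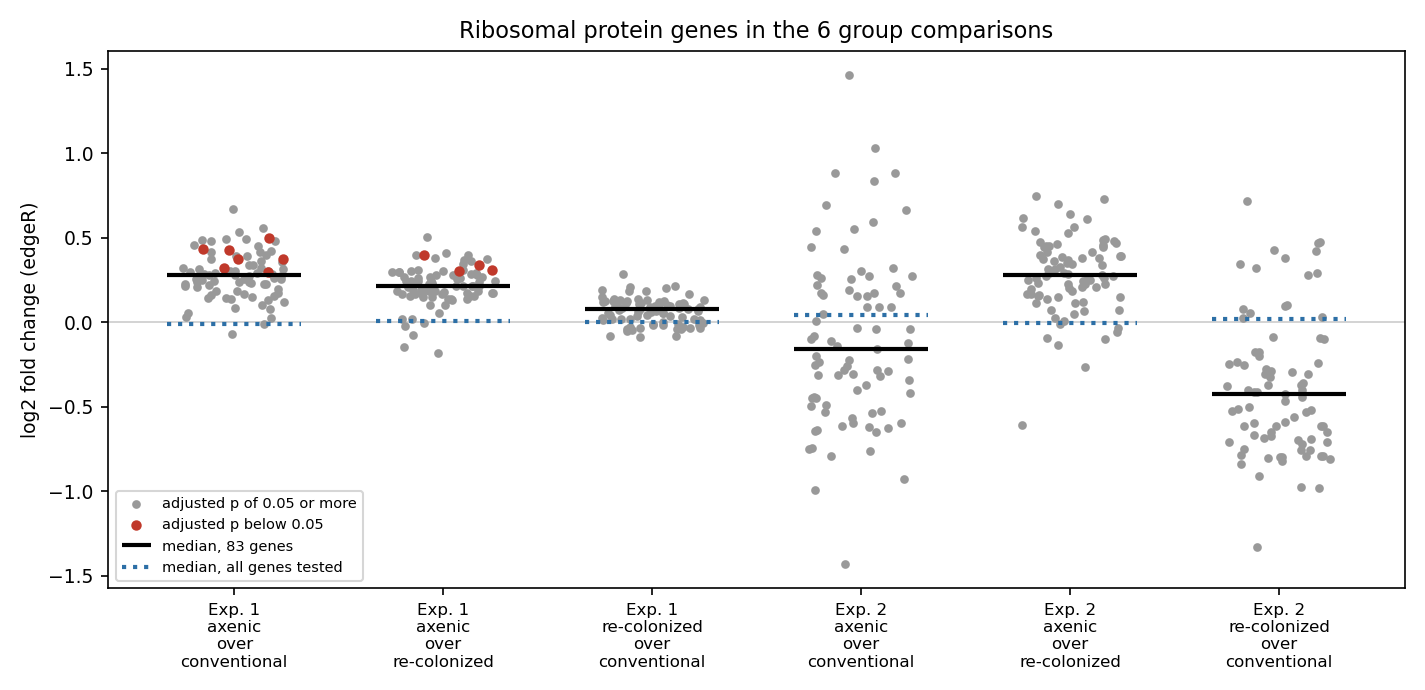
Log2 fold change (on the labelled axis) of each of the 83 ribosomal protein genes in the 6 comparisons, 3 per experiment; red points have an edgeR adjusted p below 0.05, the black line is the median of the 83 and the dotted blue line that of all genes. The median of the 83 is 0.28 in axenic against conventional heads of experiment 1 and -0.16 in the same comparison of experiment 2, where the points spread from -1.43 to 1.46.

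Whether the experiments differed in these contrasts was tested in a joint fit of all 36 libraries over 21208 genes. For axenic against conventional heads edgeR called 0 of the 83 interaction terms, where 0.099% of all genes were called, and 16 had an unadjusted p below 0.05 (19.3%, against 11% of all genes). The median difference, experiment 2 minus experiment 1, was -0.46 (all genes -0.01). The smallest adjusted p was 0.0949, for rpl6, whose fold change differed by -1.29 (SE 0.32). For re-colonized against conventional heads 0 were called (0% of all genes), 19 had an unadjusted p below 0.05 (22.9%, against 12.3% of all genes), and the median was -0.52. For axenic against re-colonized heads 0 were called (0% of all genes), 0 had an unadjusted p below 0.05 (7.31% of all genes), and the median was 0.04. Without the 6 libraries that stood apart, edgeR again called 0 of the 83 in each, with 21, 39 and 1 at an unadjusted p below 0.05 in the same order (11.7%, 10.9% and 4.62% of all genes) and medians of -0.28, -0.50 and 0.24. No gene's contrast thus differed between the experiments past the threshold.

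The larger differences were between the experiments themselves. In conventional heads 28 genes were higher in experiment 2 than in experiment 1 (edgeR, joint fit) and 29 lower, near the shares among all genes, of which 33.8% were higher and 37.7% lower. In axenic heads 13 were higher and 35 lower (30.3% of all genes higher, 31.5% lower), and in re-colonized heads 15 and 43 (33.6% and 35.3%). The median log2 fold change of the 83 was -0.63 in axenic, -0.72 in re-colonized and -0.07 in conventional heads. Without the 6 libraries that stood apart, the counts were 22 higher and 28 lower in axenic, 21 and 43 in re-colonized and 32 and 29 in conventional heads, with medians of -0.19, -0.56 and 0.04. With all libraries and in conventional heads, 19 of the 83 genes were at least 2-fold higher and 27 at least 2-fold lower. The direction did not follow the subunit: 17 large-subunit and 11 small-subunit genes were higher, 16 and 12 lower. All 29 lower genes were also called lower in axenic and in re-colonized heads. Of the 28 higher genes, 13 were called higher in both. Shares of all genes are not given for the 2-fold counts or the repeated calls. In axenic, re-colonized and conventional heads, 61.8%, 68.9% and 71.5% of all genes were called in either direction. Experiment and kind of library change together here, so no part of these differences can be given to either.

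rplp1 (chromosome 19, 1852078 to 1855369, minus strand) had the highest fold. It averaged 23008 ± 5312 CPM in conventional heads of experiment 2 (SD, n = 7) and 983 ± 144 CPM in those of experiment 1 (SD, n = 6), each scaled within its experiment. The log2 fold change, experiment 2 over experiment 1, was 4.52 (SE 0.29, edgeR adjusted p = 2.5e-16) in conventional heads, 3.53 in axenic heads and 3.70 in re-colonized heads. Its share of all ribosomal protein counts was 22.8%, 23.7% and 25.8% in axenic, re-colonized and conventional heads of experiment 2, and 2.94%, 2.90% and 2.85% in those of experiment 1. rps2 followed with 3.13 (SE 0.31), rpl4 with 2.47 (SE 0.21), rplp2l with 2.29 (SE 0.33) and rplp0 with 2.02 (SE 0.22). The stalk genes rplp0, rplp1 and rplp2l were thus among the 5 with the highest fold, whereas rplp2 had a log2 fold change of -0.41.

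rpl29 (chromosome 11, 1396170 to 1400635, minus strand) had the lowest fold. It averaged 2.54 ± 1.37 CPM in conventional heads of experiment 2 (SD, n = 7) and 60.3 ± 10.2 CPM in those of experiment 1 (SD, n = 6), a log2 fold change of -4.59 (SE 0.44, edgeR adjusted p = 8.29e-12). It was -3.84 in axenic and -4.05 in re-colonized heads. rpl35, a neighbour of Rpl23a at the exit tunnel, had -3.61 (SE 0.29), rps7, a Diamond-Blackfan anemia gene of humans, -3.11 (SE 0.27), rpl38 -3.10 (SE 0.39) and rpl34, a large-subunit protein, -3.01 (SE 0.39). In each of these 5 genes every library of experiment 2 lay below every library of experiment 1. They were chosen for the lowest folds, so this separation adds no support. Its share over all genes is not given.

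**Figure D5:**
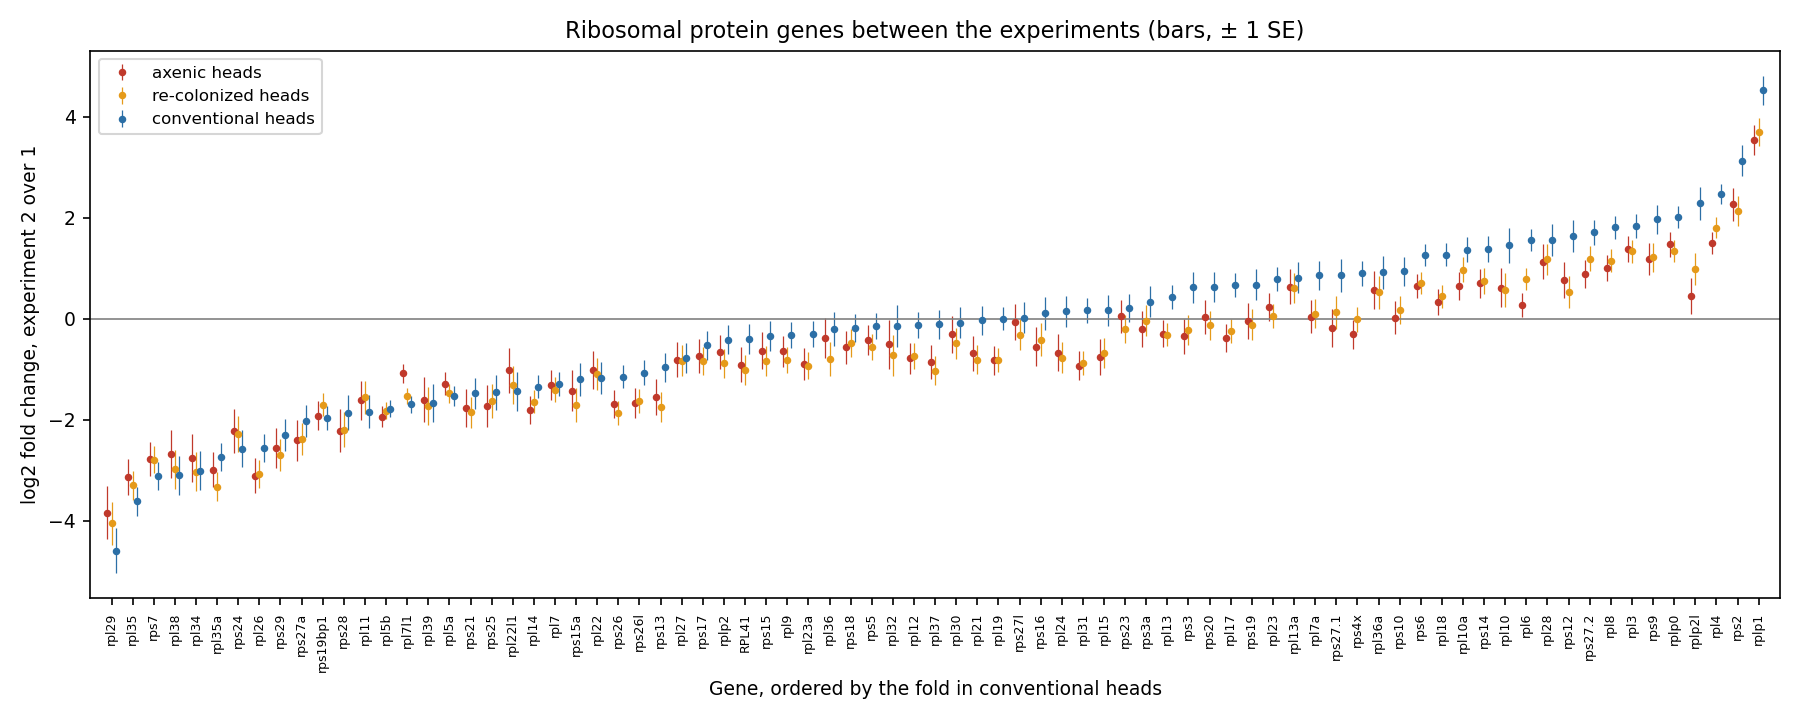
Log2 fold change of experiment 2 over experiment 1 (with 1 SE) for 79 of the 83 ribosomal protein genes in axenic, re-colonized and conventional heads, ordered by the value in conventional heads. rplp1 stands at 3.53 in axenic, 3.70 in re-colonized and 4.52 in conventional heads, and rpl29 at -3.84, -4.05 and -4.59 in the same order.

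These classes were also read against the comparisons of experiment 2, each class taken from the group of heads that the comparison leaves out. Of the 15 genes called higher in experiment 2 in re-colonized heads, 14 had a log2 fold change below 0 in axenic against conventional heads of experiment 2, with a median of -0.45. Of the 43 called lower, 26 lay above 0, with a median of 0.16 and a range from -0.64 for rpl15 to 1.46 for rpl29. The 25 not called had 6 above 0 and a median of -0.26. In experiment 1 the same classes gave like values: 15 of 15, 42 of 43 and 24 of 25 genes lay above 0 in axenic against conventional heads, with medians of 0.25, 0.31 and 0.26. With the classes of axenic heads, re-colonized against conventional heads of experiment 2 gave 0 of 13 higher, 16 of 35 lower and 0 of 35 uncalled genes above 0, with medians of -0.59, -0.18 and -0.65, so the uncalled genes were lowest there. With those of conventional heads, axenic against re-colonized heads gave 22 of 28, 27 of 29 and 26 of 26 above 0, with medians of 0.16, 0.35 and 0.35. All use the full set of libraries and are descriptions with no test.

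Other genes of translation give the setting for the 83. Of the ribosome constituents that the symbols above leave out, faua, faub and rack1 had no call in any of the 6 comparisons. rack1, a scaffold on the small subunit, averaged 2043 ± 184 CPM in axenic and 1952 ± 207 CPM in conventional heads of experiment 1. In experiment 2 it averaged 3843 ± 1240.2 CPM in axenic and 6627 ± 3282 CPM in conventional heads. In axenic against conventional heads of experiment 1 its log2 fold change was 0.07 (SE 0.12). There faua had 0.30 (SE 0.15, edgeR adjusted p = 0.175). faub, with 1.82 CPM in axenic heads, had -0.35 (SE 0.25, edgeR adjusted p = 0.377). Of the 74 genes of the mitochondrial ribosome, 4 were higher and 1 lower in axenic than in conventional heads of experiment 1, shares below the 8.89% and 6.71% of all genes. Against re-colonized heads 3 were higher and 1 lower, where 8.67% of all genes were higher and 8.27% lower. mrps25 rose (0.49, SE 0.14, edgeR adjusted p = 0.0183) and mrps15 fell (-0.47, SE 0.11, edgeR adjusted p = 0.00404) against conventional heads. In experiment 2 edgeR called 0 of the 74 in each comparison. Of all genes it called 6.13% in axenic against conventional, 3.89% in axenic against re-colonized and 0% in re-colonized against conventional heads. Without axenic C, 2 were higher and 1 lower against conventional heads of experiment 1 (7.49% and 5.29% of all genes). Against re-colonized heads 1 was then higher and 1 lower (7.34% and 6.74% of all genes). In axenic against conventional heads of experiment 1 the median log2 fold change was 0.19 for these 74 and 0.28 for the 83. The lists described below had 0.13 (initiation), 0.11 (elongation), 0.01 (biogenesis), -0.10 (mTOR) and -0.40 (p53). Without axenic C the 74, the 83 and the initiation list had 0.13, 0.16 and 0.14. Against re-colonized heads they then had 0.13, 0.09 and 0.12. A small upward shift was thus not particular to the 83.

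Of 23 elongation factors and other genes with the pyrimidine tract, axenic heads of experiment 1 had 2 higher and 0 lower against either colonized group. Of all genes, 8.89% were higher and 6.71% lower against conventional heads, and 8.67% and 8.27% against re-colonized heads. Against conventional heads of experiment 2 this list had 0 higher and 1 lower, vim, where 3.99% of all genes were higher and 2.15% lower. pabpc1b, a polyA-binding protein, rose against conventional heads with a log2 fold change of 0.35 (SE 0.10, edgeR adjusted p = 0.0190), and eef1a1a, an elongation factor, rose against re-colonized heads with 0.37 (SE 0.10, edgeR adjusted p = 0.0109). Of 43 initiation factor genes, 4 were higher in axenic than in conventional heads of experiment 1, beside the 8.89% of all genes. Without axenic C, 1 was higher, where 7.49% of all genes were higher and 5.29% lower. eif2s1a, a subunit of the factor that brings the initiator tRNA, had the smallest adjusted p (0.54, SE 0.12, edgeR adjusted p = 0.00362). In experiment 2, 2 were higher and 2 lower against conventional heads, and 0 and 2 without the 4 low libraries. Of 102 genes of ribosome biogenesis 1 was higher and 2 lower in axenic than in conventional heads of experiment 1, and 0 and 3 of 101 in experiment 2, where lyar fell (-1.21, SE 0.26, edgeR adjusted p = 0.00639). Without axenic C edgeR called 0 biogenesis genes in experiment 1. At an unadjusted p below 0.05, 4 were then higher and 9 lower, where 13.8% and 12.1% of all genes were. Without the 4 low libraries it called 2 lower in experiment 2, where 1.63% of all genes were higher and 1.53% lower.

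Of 38 genes around mTOR and the S6 kinases, which phosphorylate Rps6, 3 were higher and 8 lower in axenic than in conventional heads of experiment 1, where 8.89% of all genes were higher and 6.71% lower. In experiment 2, 0 were higher and 4 lower, against 3.99% and 2.15% of all genes. ddit4, an inhibitor of mTOR, fell to 199 ± 42.6 CPM in axenic heads, against 421 ± 50.5 CPM in conventional heads of experiment 1 (log2 fold change -1.08, SE 0.15, edgeR adjusted p = 1.84e-05). In experiment 2 it was -1.98 (SE 0.34, edgeR adjusted p = 0.000911). Also in experiment 2, eif4ebp3l, which belongs to the inhibitors of the cap-binding initiation factor, fell with a log2 fold change of -1.28 (SE 0.24, edgeR adjusted p = 0.00238). Another gene of the list, sesn3, went the other way in axenic against conventional heads of experiment 1 (0.75, SE 0.12, edgeR adjusted p = 0.000112). The p53 response is the pathway that free ribosomal proteins can set off in mammals. Of 15 of its genes, 7 were lower and none higher in axenic than in conventional heads of experiment 1. In experiment 2, 5 were lower and none higher. Of all genes, 6.71% were lower in experiment 1 and 2.15% in experiment 2. bbc3, which promotes cell death, fell in both (-0.65, SE 0.09, edgeR adjusted p = 2.76e-05, and -1.06, SE 0.24, edgeR adjusted p = 0.0103). Without axenic C the mTOR list had 2 higher and 7 lower genes, and the p53 list 6 lower, where 7.49% of all genes were higher and 5.29% lower. Without the 4 low libraries of experiment 2 each list had 4 lower and 0 higher, where 1.63% of all genes were higher and 1.53% lower. The lists share sesn1, which with all libraries was lower in experiment 2 (-1.46, SE 0.19, edgeR adjusted p = 7.49e-05), so their counts overlap.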

How the data were processed

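The authors deposited 1 table per experiment of estimated counts per gene and library. The submitters' processing notes name bcl2fastq, STAR 2.5.3a, Partek 8.0.19.0428 and the GRCz11 build, without saying which did what; the annotation and the use of strand: not given in the sources used here. Of the values of the 83 genes, 59.4% in experiment 1 and 54% in experiment 2 were not whole (tolerance 0.01), against 9.44% and 17.3% of all values. Counts were rounded, genes filtered with filterByExpr (minimum count 10), leaving 19727 and 20169 genes, scaled by TMM and tested with edgeR 4.0.16 (R 4.3.3), all 3 groups of an experiment in 1 fit. An adjusted p below 0.05 (Benjamini-Hochberg over all genes) is a call. The SE of a log2 fold change is its absolute value over the square root of the F statistic. Deviations used log2 CPM with a prior count of 2. DESeq2 1.42.0 and limma 3.58.1 were alternatives. The scripts were tested on simulated data.

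The design assumed whole counts; estimated counts take the same test after rounding. Genes and lists were chosen with earlier results of these data known. Named were the 6 genes with the highest mean CPM per experiment, up to 6 called genes per comparison and direction, the 4 with the widest range between libraries, and the 5 at each end between experiments; rpl7l1, rpl31 and other genes named outside these were chosen after their values were seen. Lists of copies by symbol replaced a rule on protein identity. Some genes are not reported here by name. No library was left out of the values unless said. The sets of libraries left out together were chosen after seeing the data.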

Additional observations from a re-analysis of the deposited data

Results flagged for a closer look

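Of 168 checks of a named gene or share in 1 group, 16 (9.52%) had a highest or lowest library whose distance to the next exceeded the limit of Dixon's test, which chance passes in about 1 of 20 groups. Several of these genes were named for their wide range between libraries, so that share is not set against chance. The 16 came from 3 libraries. Axenic C of experiment 1 passed the limit as the highest of its group in 10 genes: rpl22l1 (66.7 CPM), rpl23a (603 CPM), rpl24 (506 CPM), rpl32 (404 CPM), rpl34 (515 CPM), rpl35 (256 CPM), rpl38 (261 CPM), rps24 (384 CPM), rps28 (189 CPM) and rps7 (323 CPM). The next axenic library stood at 199 CPM for rpl32 and at 494 CPM for rpl23a.

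Re-colonized B of experiment 1 passed the limit as the lowest of its group in 5 genes: rpl15 (833 CPM), rpl24 (186 CPM), rpl35a (328 CPM), rplp1 (604 CPM) and rps29 (127 CPM). The next re-colonized library stood at 1359.7 CPM for rpl15. In experiment 2 conventional 5 was the lowest conventional library for rplp1 with 11904 CPM, next to 22630.1 CPM.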

How the results depend on the processing

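For axenic against conventional heads of experiment 1, where 7 genes were called higher, the count was 4 with library totals only, 14 with DESeq2, 4 with limma's voom, 1 with a replicate block and 3 without axenic C and re-colonized B. Leaving out 1 library gave 0 to 17. For axenic against re-colonized heads, where 4 were called, it was 2 without rps19bp1 and the genes with a copy, 1 with library totals only, 2 with voom, 0 with only both groups in the edgeR fit (14 higher at an unadjusted p below 0.05), 0 with a replicate block (6) and 0 without axenic C and re-colonized B (5). Leaving out 1 library gave 0 to 7. In axenic against conventional heads of experiment 2, library totals only gave 2 higher and a replicate block 3 higher, and DESeq2 and voom 4 lower each. Leaving out 1 library gave 0 to 1 higher and 0 to 4 lower. The counts of this paragraph are given without the shares of all genes. In re-colonized against conventional heads DESeq2 and voom gave 2 lower each. Between the experiments 13 genes were higher and 35 lower in axenic heads, 15 and 43 in re-colonized heads, where the median was -0.72, and 28 and 29 in conventional heads.

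Leaving out 1 library moved the median log2 fold change of the 83 genes between 0.16 and 0.33, 0.09 and 0.27, and 0.02 and 0.17 in the 3 comparisons of experiment 1 (axenic against conventional, axenic against re-colonized, re-colonized against conventional). In experiment 2 it moved between -0.36 and 0.0039, 0.13 and 0.45, and -0.63 and -0.33. The share difference moved between 0.160 and 0.709 percentage points (axenic minus re-colonized) and 0.0660 and 0.441 (re-colonized minus conventional) in experiment 1, and between -0.0449 and 0.987 and between -1.89 and -1.31 in experiment 2. The cause of these moves was not tested.

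Labels do not say whether pools with the same replicate label belong together, and the main tests take no pairing into account. Same-labelled libraries had a correlation of deviations over 0.1 in 4 of 13 pairs in experiment 1 (highest 0.23). In experiment 2 this held in 10 of 15 pairs (highest 0.40). Pairs with different labels are not given beside them, so a pairing is neither shown nor excluded. The rule on protein identity was not run. Among the genes named by the rules above, no alternative reversed a called value. That check did not cover single genes with axenic or re-colonized heads in place of conventional heads between the experiments.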
